A study of Mus musculus with 15 samples.

Results

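The 10 genes described here, ND1, ND2, ND4, ND5, ND6, CYTB, COX1, COX2, COX3 and ATP6, lie on the mitochondrial chromosome and encode subunits of the respiratory chain and the ATP synthase. They were taken from the deposited tables by symbol, and they are 10 of 45777 features and 10 of the 13 protein genes among the 37 features of that chromosome. RNA was sequenced from the striatum, the main input nucleus of the basal ganglia, of 15 wild-type male mice of the outbred ICR stock at 7 weeks of age. Per the labels' protocols, ICR males 6 weeks old were given methamphetamine (METH, a psychostimulant) at 5 mg/kg or saline at 10 mL/kg under the skin each day for 21 days and were then mated with untreated females. F1 denotes the sons of these males and F2 their grandsons, fathered by F1 males with untreated dams. METH and saline below name the lineage, since the protocols describe the dosing of the founders only. The saline lineage had 4 mice in F1 and 4 in F2, and the METH lineage 3 in F1 and 4 in F2.

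Mitochondria keep a small circular genome that is transcribed from both strands as long precursors, which are cut into rRNAs, tRNAs and mRNAs, largely at the tRNAs between the genes. Its proteins form the membrane cores of complexes I, III, IV and V, which also need many subunits encoded in the nucleus and imported. Neurons depend heavily on this pathway for ATP, and mitochondrial mRNAs are among the most abundant RNAs of brain tissue.

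The genes overlap, which bears on what a count per gene means here, because the sources used here give neither the counting method nor the use of strand. The overlaps of members with other protein genes that are longer than 1 base are shown with 30 flanking bases on each side, 5′ to 3′ on the plus strand of build GRCm38 (the same build as mm10; coordinates from RefSeq, sequence from GENCODE release 21), with the bases that lie in both genes in capitals. ATP6 shares 43 bases with ATP8 at its start (shown: MT:7897-7999), ND4 shares 7 with ND4L (MT:10137-10203), and ND5 and ND6 share 14 from opposite strands (MT:13522-13595). ATP6 and COX3 also share 1 base, and ND1, ND2 and COX1 share 2, 2 and 3 bases with the tRNA genes TrnI, TrnW and TrnS1, which are not shown.
ATP8-ATP6: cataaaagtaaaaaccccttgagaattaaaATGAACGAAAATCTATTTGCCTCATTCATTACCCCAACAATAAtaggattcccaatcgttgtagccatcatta
ND4L-ND4: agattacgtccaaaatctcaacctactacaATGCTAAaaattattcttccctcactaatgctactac
ND5-ND6: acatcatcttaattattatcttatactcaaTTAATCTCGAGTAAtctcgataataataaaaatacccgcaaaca

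A further set of sequences shows how the annotated genes end. As annotated, COX1 carries a complete stop codon, and so does ATP6, whose last base is the 1 it shares with COX3. By contrast, COX3, CYTB and ND4 end on a single T (1 base past the last whole codon). The poly(A) tail supplies the rest of the stop codon in such mitochondrial mRNAs. The last 30 bases of 4 members are given, with the stop codon or the lone T in capitals (COX1 at MT:6843-6872, COX3 at MT:9361-9390, CYTB at MT:15259-15288 and ND4 at MT:11515-11544, all plus strand).
COX1 end: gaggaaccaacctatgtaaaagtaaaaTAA
COX3 end: tatacgtctccatttattgatgaggatctT
CYTB end: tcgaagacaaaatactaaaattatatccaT
ND4 end: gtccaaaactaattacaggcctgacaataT

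Of the 10 members, 9 are read from 1 strand and ND6 alone from the other, so its mRNA differs in base composition. The first 60 bases of COX1 (MT:5328-5387, plus strand) and of ND6 (MT:14011-14070, minus strand) are given as transcribed, with the start codon in capitals. Over its whole length ND6 was 28.1% G and 5.97% C, whereas COX1 was 16.1% G and 23.8% C and ATP6 9.69% G and 26.3% C.
COX1 start: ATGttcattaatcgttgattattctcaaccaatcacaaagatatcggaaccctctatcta
ND6 start: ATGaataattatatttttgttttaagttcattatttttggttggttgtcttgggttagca

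Library totals ranged from 31563806 to 50573906 counts. Spiny projection neuron markers were present in all 15 libraries (Ppp1r1b, the DARPP-32 gene, at 1367 CPM or more, where CPM is a gene's counts scaled to a common library total, and Drd2, the D2 dopamine receptor gene, at 183.6 CPM or more), and so were glial, vascular and blood markers, although the cell type label reads neuronal. Slc17a7, the glutamate transporter gene of cortical neurons, exceeded 100 CPM in 5 libraries (F2 METH replicate 2, F2 saline replicate 4, F1 METH replicate 3, and replicates 3 and 1 of F1 saline). The labels do not tie mice to litters or founders, so p-values measure only the spread between these animals. Each generation has a table of its own, so generation and table cannot be told apart.

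Corrected for length, COX1 mRNA was the most abundant of the 10 in each of the 15 libraries, at 31729.9 to 40549 TPM (a length-corrected share of all transcripts, as the authors computed it). COX2 was the second or the third, at 18740.0 to 24446 TPM. CYTB, ATP6, ND1 and COX3 took ranks 2 to 6 between them. Their ranges overlapped in F1, whereas in F2 COX3 lay below ATP6, CYTB and ND1 without overlap. ND2, ND4, ND5 and ND6 held ranks 7, 8, 9 and 10 in all 15 libraries.

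The lower end of this order was steep. In F1 saline mice ND2 was at 10913 ± 1120.1 TPM and ND4 at 9590.3 ± 449 (SD, n = 4), and their ranges overlapped although ND2 exceeded ND4 in 4 of 4 libraries. ND5 was at 4512 ± 541 TPM and ND6 at 807 ± 101 (SD, n = 4), with no overlap between ND4 and ND5 or between ND5 and ND6. COX1 was 41.0 ± 3.75 times as abundant as ND6 in F1 saline (n = 4), 44.3 ± 3.75 times in F1 METH (n = 3), 40.6 ± 3.90 times in F2 saline (n = 4) and 40.6 ± 2.19 times in F2 METH mice (n = 4). The lineages overlapped in this ratio in both generations.

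**Figure D1:**
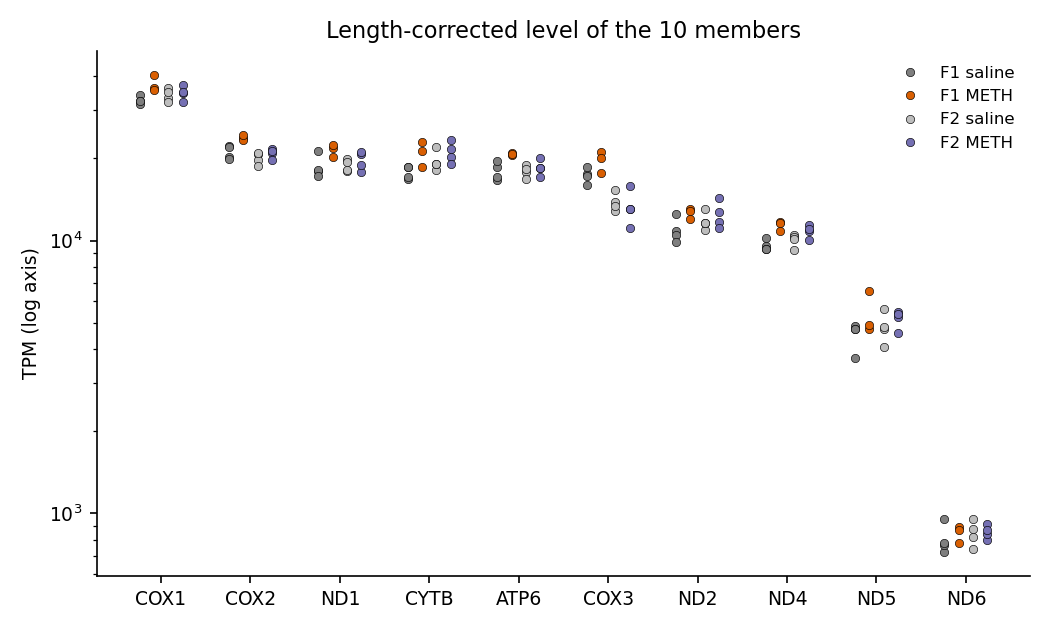
Length-corrected level (TPM, log axis) of the 10 genes, 1 point per library, coloured by group and ordered by their median over 15 libraries. COX1 is highest (31729.9 to 40549 TPM) and ND6 lowest (724 to 956 TPM) in every library.

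Summed over the 10 genes, mitochondrial mRNA took a larger share of all counts in F1 METH than in F1 saline libraries. The share was 7.03, 6.61, 6.32 and 6.80% in the 4 F1 saline libraries and 7.99, 7.46 and 8.11% in the 3 F1 METH libraries. The groups did not overlap, with means of 6.69 ± 0.299% and 7.85 ± 0.348% (SD) and a difference of 1.16 percentage points against a pooled SD of 0.319. In F2 the share was 6.77, 5.77, 6.37 and 5.94% in saline and 7.13, 6.32, 5.67 and 6.56% in METH libraries. These groups overlapped throughout, with means of 6.21 ± 0.448% and 6.42 ± 0.605% (SD, n = 4 each) and a difference of 0.207 points. Counting error was small beside this spread, since the 95% Wilson interval of a library's share reached at most 0.00928 points to either side. In bulk tissue, fewer cells of a type and less RNA per cell cannot be told apart, and a share also depends on all other RNA in the library.

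**Figure D2:**
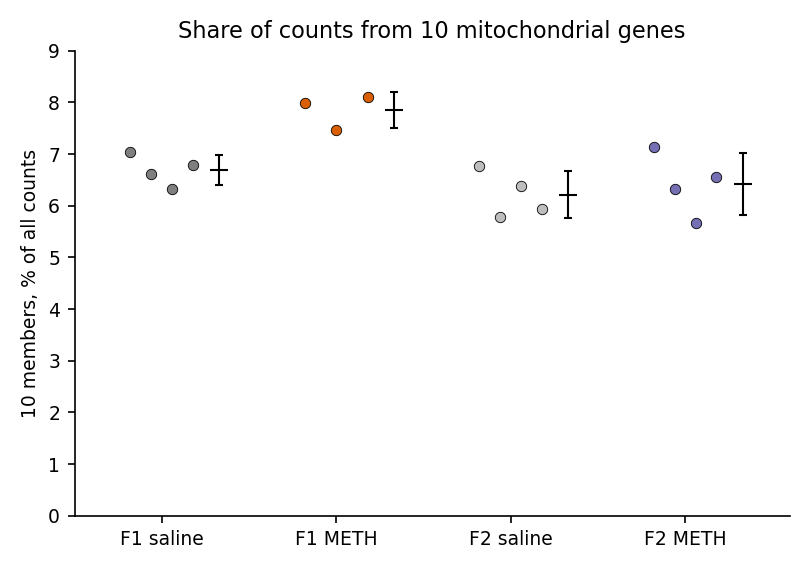
Percent of all counts that fall on the 10 genes, 1 point per library, with the group mean and SD as the bar to the right of the points. F1 METH libraries (7.46 to 8.11%) lie above all F1 saline libraries (6.32 to 7.03%), and the F2 groups overlap.

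Gene by gene, no member passed the test in either generation (edgeR's quasi-likelihood test, Benjamini-Hochberg adjusted p under 0.05 over all genes tested). The test called 0 of 18499 genes in F1 (0%) and 0 of 18093 in F2 (0%), with 774 (4.18%) and 863 (4.77%) at an unadjusted p under 0.05. DESeq2 called 11 genes (0.0595%) in F1 and 7 (0.0387%) in F2 and limma-voom 3 (0.0162%) and 1 (0.00553%), and 0 of the members were among them. The F1 values still had 1 direction: 10 of 10 log2 fold changes (METH over saline) were above 0, against 49.1% of all genes, with a median of 0.26 against -0.0035 over all genes. Of the 10, 4 had an unadjusted p under 0.05 with METH higher (2.52% of all genes did), and 6 had METH levels above every saline level (2.33% of all genes did). The 10 share a genome, their precursors and their libraries and are not 10 separate pieces of evidence.

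Among the complex I genes, ND4, which encodes a proton-pumping membrane subunit, had the smallest F1 p of the members. Its levels were 5749, 5387, 5187 and 5464 CPM (of all counts) in F1 saline and 6863, 6277 and 6572 CPM in F1 METH libraries, so that each METH library lay above each saline library. The fitted log2 fold change was 0.30 ± 0.10 (SE), or 1.23-fold, with an unadjusted p of 0.0171 and an adjusted p of 0.994. In F2, ND4 was at 5509, 4689, 5369.7 and 5197 CPM in saline and 6058, 5608, 5000.5 and 5679 CPM in METH libraries, which overlapped (log2 fold change 0.10 ± 0.076, adjusted p = 0.960).

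ND5, another pumping subunit and the longest member at 1824 bases, also had non-overlapping groups in F1, but by a narrow margin. Its F1 saline levels were 3621, 3554, 3489 and 2882 CPM and its F1 METH levels 3696, 3753 and 4899 CPM. METH replicate 3 stood well above the other two, and the fitted change was 0.31 ± 0.14 (SE, adjusted p = 0.994). In F2, the saline range was 2751 to 3905 CPM and the METH range 3007 to 3740.4 CPM, and they overlapped.

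ND1 and ND2 overlapped in F1 because of saline replicate 1. ND1, a core subunit beside the quinone site, was at 8275, 7093, 7056 and 7055 CPM in F1 saline and 8264, 8756 and 8866 CPM in F1 METH libraries. Saline replicate 1 was just above the lowest METH library, and the other saline libraries were far below it; on library totals scaled by TMM the groups did not overlap. ND2, a pumping subunit, was at 5272, 4639, 4386 and 4364 CPM in F1 saline and 5803, 5237 and 5508 CPM in F1 METH libraries. The fitted changes were 0.26 ± 0.11 for ND1 and 0.27 ± 0.11 for ND2 (SE, adjusted p = 0.994 for each), and both genes overlapped in F2 (0.047 ± 0.080 and 0.064 ± 0.10).

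ND6, the light-strand gene, had the smallest F1 difference of the 10. It was at 201.3, 154, 162 and 173 CPM in F1 saline and 173, 194 and 186 CPM in F1 METH libraries. The highest of the 7 was a saline library, and the groups overlapped. The fitted change was 0.12 ± 0.11 in F1 and 0.0047 ± 0.086 in F2 (SE, adjusted p = 0.994 and 1.00). That ND6 differs from the other 9 was not tested.

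CYTB encodes cytochrome b, the only mitochondrially encoded subunit of complex III. Its F1 levels were 8666, 8747, 7813 and 8346 CPM in saline and 11236, 8940.2 and 10033 CPM in METH libraries. All 3 METH libraries were above the saline ones, METH replicate 2 by little, and the fitted change was 0.29 ± 0.12 (SE, unadjusted p = 0.0426, adjusted p = 0.994). In F2 the levels were 9593, 7649, 8312 and 8081 CPM in saline and 10282, 8711, 7849 and 9306 CPM in METH libraries, which overlapped (0.10 ± 0.097, adjusted p = 0.960).

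The 3 cytochrome c oxidase genes differed in how well the F1 groups separated. COX1, which binds the haem and copper site where oxygen is reduced, was at 21539.9, 20685, 19851 and 21403 CPM in F1 saline and 23813, 23025 and 25823 CPM in F1 METH libraries, with no overlap (0.24 ± 0.12, SE). COX2, which takes electrons from cytochrome c, was at 6201, 5687, 5494 and 6419 CPM in F1 saline and 6932, 6690.2 and 6892 CPM in F1 METH libraries, with no overlap and the 3 METH libraries close together (0.23 ± 0.11). COX3, a membrane subunit with no metal centre, was at 5614, 5530.1, 5059 and 6200.0 CPM in F1 saline and 7078, 5818 and 6475 CPM in F1 METH libraries. METH replicate 2 lay below saline replicate 4, so the COX3 groups overlapped (0.23 ± 0.12). The adjusted p was 0.994 for all 3.

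In F2 the groups overlapped for all 3 cytochrome c oxidase genes. COX1 was at 21440.2, 19054, 20552 and 18457 CPM in saline and 22027, 20181, 17861 and 20291 CPM in METH libraries, and METH replicate 3 was the lowest of all 8 (0.011 ± 0.083). COX2 was between 4763 and 5436 CPM in saline and between 4841 and 5722 CPM in METH libraries (0.048 ± 0.077). COX3, at 3705 to 4584 CPM in saline and 3135 to 4775 CPM in METH libraries, was the only member with a log2 fold change below 0 in F2 (-0.067 ± 0.12). The adjusted p values were 0.996, 0.975 and 0.980.

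ATP6, subunit a of the ATP synthase, which forms its proton path, was at 5167, 4654, 4731 and 5659 CPM in F1 saline and 6067, 5886 and 5844 CPM in F1 METH libraries. No saline library reached the METH range, and the METH libraries lay close together. The fitted change was 0.26 ± 0.11 (SE, unadjusted p = 0.0443, adjusted p = 0.994). In F2 the saline range of 4211 to 4874 CPM lay inside the METH range of 4198 to 5248 CPM (0.038 ± 0.077, adjusted p = 0.986).

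**Figure D3:**
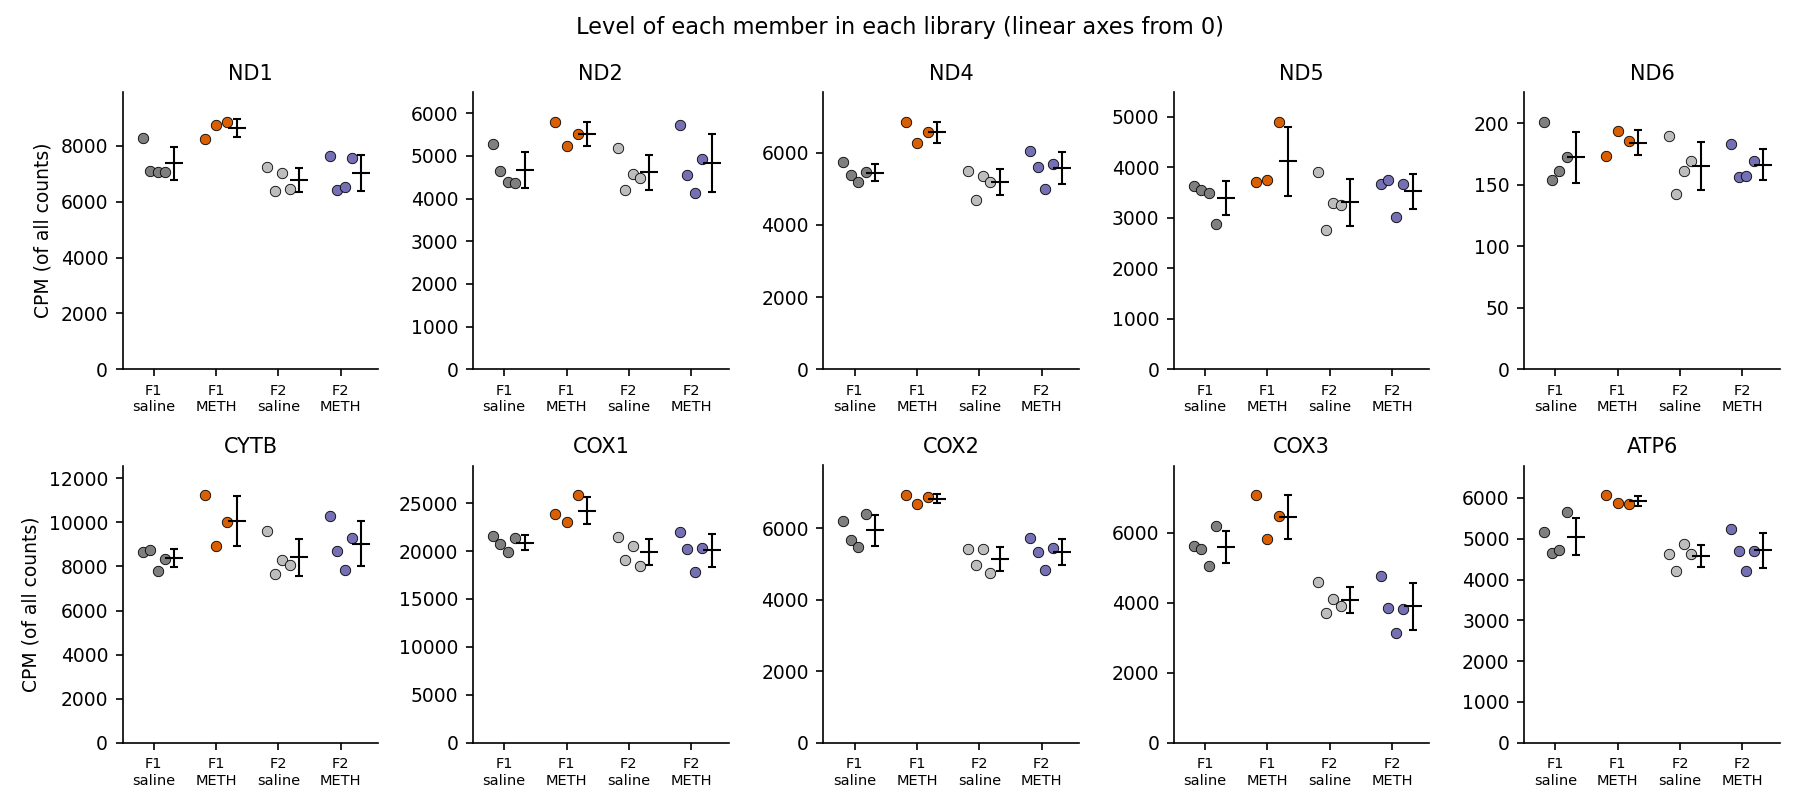
Level of each gene in each library (CPM of all counts, linear axes that start at 0), with the group mean and SD as the bar to the right of the points. In F1 the METH points lie above all saline points for ND4, ND5, CYTB, COX1, COX2 and ATP6, and in F2 the groups overlap for all 10.

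Over the F2 comparison as a whole, 9 of 10 log2 fold changes were above 0, against 49.5% of all genes, with a median of 0.048 and a range from -0.067 (COX3) to 0.10 (ND4). In 0 of 10 members did the METH libraries all lie above the saline ones (1.35% of all genes), and 0 had an unadjusted p under 0.05. Without METH replicate 1, the F2 median was -0.0072, with 5 of 10 members above 0.

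The effects of lineage in the generations were compared by the interaction term over all 15 libraries. The F2 effect was smaller than the F1 effect in 10 of 10 members, with a median difference of -0.22 on the log2 scale and a range from -0.31 (COX3) to -0.13 (ND6). Of all genes, 49.9% were above 0. The smallest unadjusted p was 0.0715 (COX1, -0.24 ± 0.12), so that 0 members were under 0.05, against 4.88% of all genes. Every adjusted p was 1.00, and 0 members passed (0.00518% of 19308 genes did, which is 1 gene). DESeq2 called 7 genes (0.0363%) and limma-voom 0 for the difference, with 0 members among them.

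**Figure D4:**
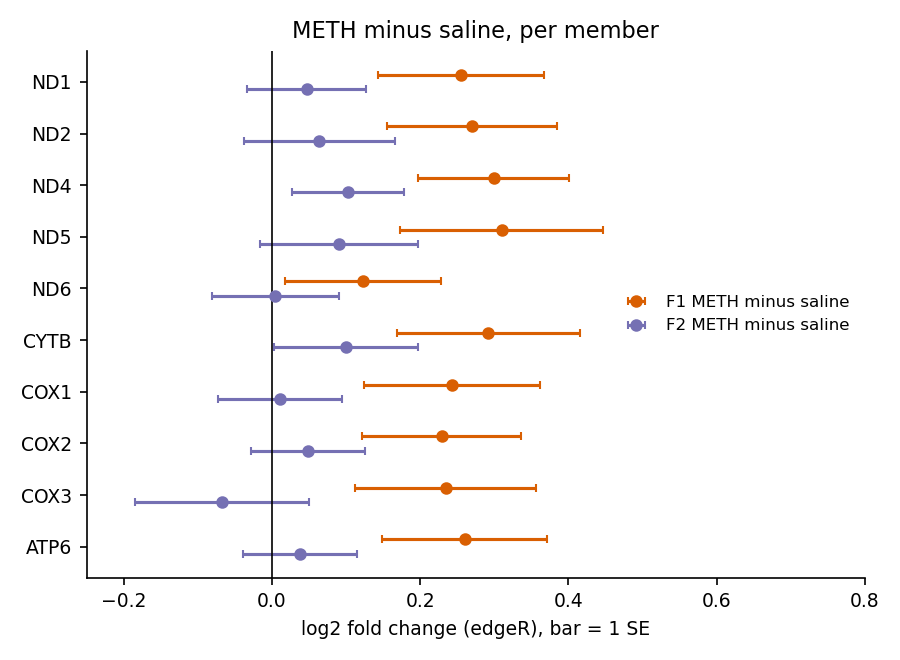
Fitted log2 fold change (METH over saline) of each gene in F1 and F2, with bars of 1 SE. All F1 values are above 0 (0.12 to 0.31) and F2 values run from -0.067 to 0.10; none passed the test.

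The make-up of the mitochondrial mRNA pool did not separate the lineages. As a percent of the counts on the 10 genes, COX1 took 31.2 ± 0.385% in F1 saline (n = 4) and 30.8 ± 1.02% in F1 METH mice (n = 3), CYTB 12.5 ± 0.454% and 12.8 ± 1.10%, and ND6 0.257 ± 0.0218% and 0.235 ± 0.0220%. The groups overlapped for each of the 10 genes in F1 and in F2. COX3 stood out between the tables: it took 7.98, 8.36, 8.001 and 9.12% in F1 saline but 6.77, 6.42, 6.44 and 6.57% in F2 saline libraries. With the METH lineage included the ranges were 7.80 to 9.12% in F1 and 5.53 to 6.77% in F2, and COX3 was the only member of the 10 whose F1 and F2 ranges did not overlap. Generation coincides with the table here, and this difference was not tested.

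The members varied together between mice. Over 15 libraries, with log2 CPM centred within each group, all 45 pairs of members had a Pearson r above 0, from 0.117 (ATP6 and ND5) to 0.897 (COX3 and CYTB), with a median of 0.657. ND5 was the loosest, with a median r of 0.508 with the other 9, and COX3 the tightest, with 0.808. The points share library and depth, and the correlations are given as a description. F2 METH replicate 3, for example, was the lowest of its group for 8 of the 10 members, all but ND1 and ND6.

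The 3 mitochondrial protein genes outside the set were close to it. ND3 had an F1 log2 fold change of 0.29 ± 0.11, ND4L of 0.32 ± 0.11 and ATP8 of 0.29 ± 0.099 (SE, adjusted p = 0.994 for each), and the F2 values were -0.0067, 0.053 and -0.062. ATP8 was at 2172, 1829, 1914 and 1942 CPM in F1 saline and 2333, 2269.5 and 2464 CPM in F1 METH libraries, with no overlap. The rRNAs had values closer to 0: mt-Rnr1, the small rRNA, was 0.12 ± 0.088 and mt-Rnr2, the large rRNA, 0.11 ± 0.10 in F1. The level of mt-Rnr1 was 2235 to 2496 CPM in F1 saline and 2503 to 2624 CPM in F1 METH libraries, with no overlap, while that of mt-Rnr2 overlapped (2876 to 3381 against 3232 to 3530 CPM). Their sum was 0.558 ± 0.0348% of counts in F1 saline (n = 4) and 0.592 ± 0.0208% in F1 METH mice (n = 3), which overlapped. The ratio of member counts to rRNA counts was 12.0 ± 1.03 in F1 saline and 13.3 ± 0.565 in F1 METH, and 15.4 ± 1.49 and 16.4 ± 0.763 in F2 (SD), and it overlapped in both generations.

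Of the 22 mitochondrial tRNA genes, which lie between the protein genes in the precursors, 18 could be tested in F1 and 17 in F2. All 18 were above 0 in F1 (49.1% of all genes were), with a median log2 fold change of 0.41, and 0 passed. Of the 18, 7 had METH levels above every saline level (2.33% of all genes did). The tRNAs share precursors and libraries with the members, and some had few counts, such as TrnV with 21 to 37 per F1 library. In F2, 6 of 17 were above 0 and the median was -0.027. TrnL1, the leucine tRNA directly upstream of ND1, was at 31.1, 27.9, 32.1 and 20.2 CPM in F1 saline and 43.5, 46.2 and 41.0 CPM in F1 METH libraries (0.68 ± 0.15, unadjusted p = 0.00155, adjusted p = 0.994). Its F2 groups overlapped (-0.099 ± 0.088). Standard RNA libraries capture RNAs as short as tRNAs poorly, and the labels do not say how RNA was selected.

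The nuclear subunit genes of complexes I to V did not share the members' F1 direction. Of these 76 genes, 4 belong to complex II, which has no member. In F1, 18 of the 76 were above and 58 below 0, with a median of -0.052 (49.1% of all genes were above 0). In F2, 4 were above and 72 below 0, with a median of -0.11 (49.5% of all genes were above 0). None of the 76 passed in either generation, with 0 in F1 and 12 in F2 at an unadjusted p under 0.05. Of all genes, 4.18% and 4.77% were. The 76 share their libraries and are not 76 separate pieces of evidence. Ndufs1 of complex I was at 0.023 ± 0.10 in F1 and 0.0015 ± 0.064 in F2, Sdhb of complex II at -0.13 ± 0.068 and 0.029 ± 0.083, and Uqcrc2 of complex III at -0.13 ± 0.084 and -0.081 ± 0.076. Cox4i1 of complex IV was at -0.051 ± 0.092 in F1 and -0.17 ± 0.075 in F2, and Atp5a1 of complex V at -0.072 ± 0.091 and -0.038 ± 0.067 (log2 fold change ± SE).

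The balance of mitochondrial to nuclear subunit mRNA was therefore set out complex by complex, as the summed TPM of the members over the summed TPM of the nuclear subunits. For complex V the ratio was 2.54, 2.08, 2.28 and 2.51 in F1 saline and 2.89, 2.82 and 3.21 in F1 METH libraries. In F2 it was 3.34, 3.16, 3.37 and 3.36 in saline and 3.74, 3.70, 3.67 and 3.57 in METH libraries. In this ratio, of which ATP6 is the only member, the lineages did not overlap in either generation. It leaves out ATP8, the other complex V gene of the mitochondrial chromosome. In F2, ATP8 was at 28165, 25965, 27112 and 26211 TPM in saline libraries. Its F2 METH levels were 28303, 22937, 26148 and 26359 TPM, and the lineages overlapped. Ratios with ATP8, ND3 and ND4L included were not made. The lack of overlap is therefore that of ATP6 over the nuclear subunits and is not shown for complex V with ATP8 counted.

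For complex IV the lineages did not overlap in F1 either, at 9.21, 7.73, 8.01 and 8.72 in saline against 9.70, 9.56 and 10.8 in METH libraries. Its F2 values were 13.01, 12.4, 12.3 and 11.7 in saline and 14.4, 13.5, 14.6 and 13.7 in METH libraries, again with no overlap. Complex I overlapped in F1 through saline replicate 1 (6.97, 5.24, 5.80 and 5.18 against 6.55, 6.85 and 8.18) and did not overlap in F2 (9.28, 8.25, 9.10 and 8.35 against 10.0, 9.39, 10.4 and 9.66). Complex III overlapped in both, also through saline replicate 1 of each generation. The F2 margin of complex I was narrow (9.28 against 9.39), and its ratio leaves out ND3 and ND4L. In F2, ND4L was at 8191 to 10388 TPM in saline and 8447 to 10372 TPM in METH libraries. ND3 was at 2249 to 2925 TPM and 2124 to 3010 TPM, so both genes overlapped. The complex I separation is that of the members and is not shown with ND3 and ND4L counted.

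Expressed as METH mean over saline mean, the ratio was 1.24 for complex I, 1.28 for III, 1.19 for IV and 1.26 for V in F1, and 1.13, 1.14, 1.14 and 1.11 in F2. These values stayed above 1 when any single library was left out (1.14 to 1.38 in F1 and 1.09 to 1.19 in F2). The median log2 fold changes of the members and of all 76 nuclear subunits, those of complex II included, were 0.26 and -0.052 in F1. In F2 they were 0.048 and -0.11. No test was made of these ratios, since the members were chosen with results of these libraries known. Summed nuclear subunit levels ran from 8449 to 10296 CPM in F1 and from 5575 to 6877 CPM in F2 libraries, which cannot be told apart from the change of table.

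**Figure D5:**
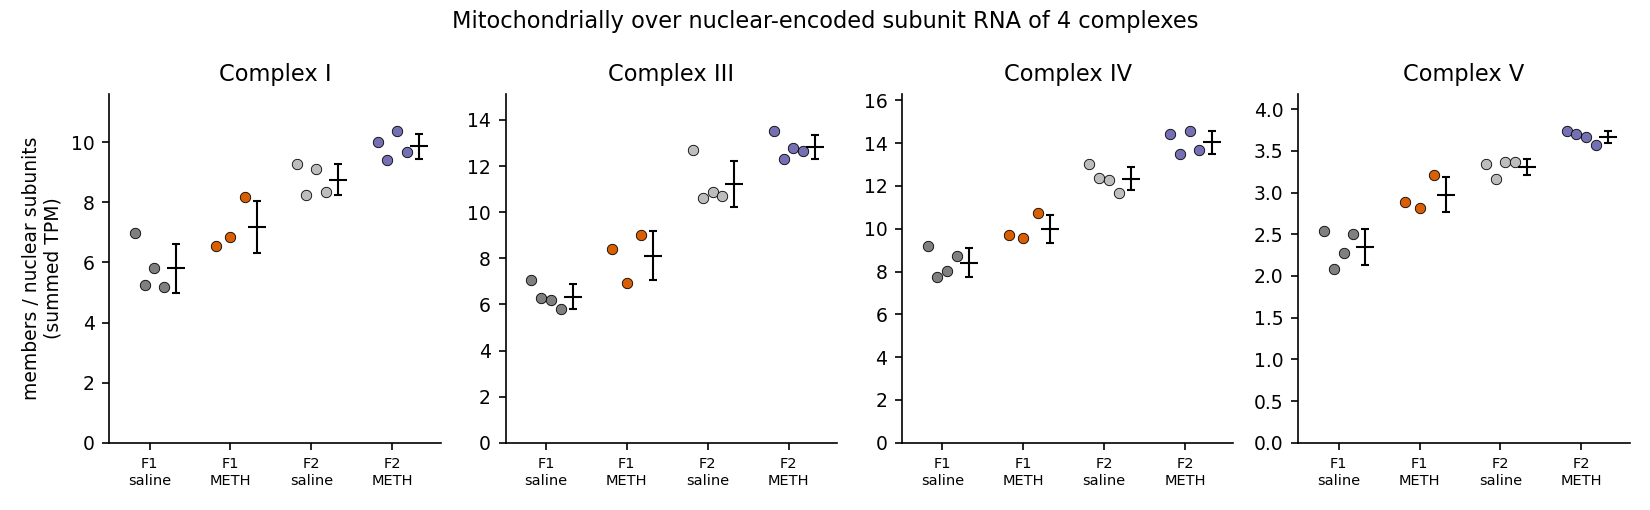
Summed TPM of the mitochondrially encoded members over that of the nuclear subunits, for complexes I, III, IV and V (axes from 0), 1 point per library with the group mean and SD as the bar beside them. ATP6 is the only member of complex V, and ATP8, ND3 and ND4L are left out. Counting members only, METH points lie above all saline points for complexes IV and V in both generations and for complex I in F2.

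Genes that serve the mitochondrial genome lay on both sides of 0. Of 31 genes for mitochondrial transcription and RNA processing, 14 were above and 17 below 0 in F1, with a median of -0.011, and 18 and 13 in F2, with a median of 0.014. Tfam, which packages mitochondrial DNA and starts its transcription, was at -0.13 ± 0.077 in F1 (25.5 to 27.2 CPM in saline, 22.8 to 24.0 in METH) and -0.064 ± 0.084 in F2. Polrmt, the mitochondrial RNA polymerase, was at 0.14 ± 0.087 and -0.013 ± 0.084, and Lrpprc, which stabilises mitochondrial mRNAs, at -0.12 ± 0.11 and -0.024 ± 0.062. None passed the test.

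The other mitochondrial lists held no call either. Of 12 genes for mitochondrial DNA maintenance, 4 were above 0 in F1 and 7 in F2 (medians -0.028 and 0.033), and of 78 mitochondrial ribosomal protein genes 11 and 14 were (medians -0.075 and -0.057). Of 22 genes of biogenesis and mass, 6 and 11 were above 0 (medians -0.051 and -0.0062). Among these, Ppargc1a, the coactivator PGC-1alpha, was at -0.013 ± 0.083 in F1 and -0.12 ± 0.090 in F2, citrate synthase gene Cs at -0.052 ± 0.087 and -0.034 ± 0.058, and Vdac1 of the outer membrane at -0.097 ± 0.11 and 0.029 ± 0.061. Complex IV assembly genes (7 of 19 above 0 in F1 and 9 of 19 in F2) and stress response genes for mitochondrial defects (7 of 16 and 6 of 16) had medians between -0.082 and -0.0060.

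Markers of glial and vascular cells had mostly positive values beside the members in F1. Oligodendrocyte markers were above 0 in 12 of 12 (median 0.27), with a summed level of 6710.3 to 8496 CPM in saline and 7382 to 10527 CPM in METH libraries. Pericyte and smooth muscle markers were above 0 in 8 of 8 (median 0.25), at 202.0 to 238 CPM in saline and 253 to 269 CPM in METH libraries, with no overlap. Endothelial markers were above 0 in 8 of 9 (median 0.19), at 341 to 391 against 416 to 462 CPM, also with no overlap.

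Astrocyte markers were above 0 in 9 of 10 in F1 (median 0.19, summed 3896 to 4391 CPM in saline against 4343 to 6274 in METH) and microglia markers in 8 of 9 (median 0.19, 346 to 427 against 350 to 514 CPM). Spiny projection neuron markers were above 0 in 13 of 15 (median 0.15, 9661 to 15198 against 11704 to 16036 CPM), and cortical neuron markers in 3 of 12 (median -0.26, 2837 to 4403 against 3183 to 4797 CPM). Heat shock and chaperone genes were below 0 in 12 of 13 (median -0.23, 3474 to 4501 against 3087 to 3506 CPM). Immediate early genes, which respond to neuronal activity, were below 0 in 13 of 14 (median -0.41, 618 to 1769 against 722 to 1433 CPM), and erythrocyte markers in 5 of 5 (median -1.15, 114 to 850 against 121 to 169 CPM). The erythrocyte level of 850 CPM was that of saline replicate 4 alone. The other saline libraries were at 114, 195 and 124 CPM, a range that spans the METH libraries. No gene of these 10 lists was at 0 in every library of a group, none passed the test, and their part in the members' F1 values was not tested. In F2, the medians were -0.14 for oligodendrocyte, -0.17 for astrocyte, -0.30 for microglia and -0.12 for endothelial markers, -0.028 for cortical neuron and -0.089 for erythrocyte markers, and -0.30 for heat shock and chaperone genes. Those of pericyte and smooth muscle markers (0.048, 6 of 8 above 0), spiny projection neuron markers (0.041, 13 of 15) and immediate early genes (0.097, 12 of 14) were above 0. Without the 5 libraries with Slc17a7 above 100 CPM, the F1 share differed by 1.02 points and the F1 median of the members was 0.25.

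Near-identical nuclear copies could take or give reads for some members. Copies at least 99% identical, found among GENCODE transcripts of other chromosomes, cover 99.6% of COX2, 99.6% of ATP6, 99.9% of COX3, 63.6% of ND4 and 31.3% of COX1, and 0% of ND1, ND2, ND5, ND6 and CYTB. By symbol, none of these copies is a feature of the deposited data, and they were not analysed here. The sources used here do not say how reads that match both places were assigned. The F1 log2 fold changes of the 5 members with no such copy were 0.12 (ND6), 0.26 (ND1), 0.27 (ND2), 0.29 (CYTB) and 0.31 (ND5), and those of the members covered nearly whole were 0.23 (COX2), 0.23 (COX3) and 0.26 (ATP6). The part of such copies in these values was not tested.

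Outside the mitochondrial chromosome, the genes whose level followed the mean of the 10 members most closely over 15 libraries, centred within groups, were Fcgr1 (r = 0.892), an Fc receptor gene at 1.43 to 2.78 CPM, Pam16 (r = 0.853), part of the import motor of the inner mitochondrial membrane at 7.07 to 16.2 CPM, Nmd3 (r = 0.843), Proser2 (r = 0.812) and Uvrag (r = 0.809). Among the lowest were Loxl2 (r = -0.828) and Pgbd5 (r = -0.825). They are among the extremes of 17767 genes compared, of which 9 had r above 0.8 and 9 below -0.8. The 76 nuclear subunit genes had a median r of 0.378 with the members, from -0.0987 to 0.648, while the median over all genes was -0.0085.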

How the data were processed

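Striatal RNA of 15 mice was analysed from 1 deposited table per generation. Per the file headers, the deposited values are counts, FPKM and TPM made by the authors. The submitters' processing notes name build mm10, StringTie 2.1.3b, HISAT2 2.1.0, Trimmomatic and bcl2fastq 2.20.0, and the sources used here do not say how counts were derived. The counts are whole numbers and were used as raw. Groups came from sample titles. edgeR 4.0.16 (quasi-likelihood, TMM, filterByExpr with a minimum count of 10, adjusted p under 0.05 over all genes) was run per generation, with an interaction over 15 libraries; alternatives used DESeq2 1.42.0 and limma 3.58.1 in R 4.3.3. SE is the log2 fold change over the root of its F statistic. TPM divided by count per base was constant within a library to 0.0157%. The members, lists and named genes (members, 3 other protein genes, rRNAs, TrnL1, 11 fixed nuclear genes and the 5 highest and 3 lowest correlations) were chosen with earlier results of these data known. On simulated data (18192 genes), F1 calls reached 22.4% of genes changed 1.5-fold. These genes were drawn at random from all tested genes, so the rate is not one for genes as abundant as the members. The members' F1 folds were smaller than 1.5. Of 21 replicate pairs, 0 agreed within sampling noise (chi-square per degree of freedom 16.1 to 65.8). Figures used Python 3.11.15 and matplotlib 3.10.9.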

Additional observations from a re-analysis of the deposited data

Results flagged for a closer look

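In groups of 4 libraries, 93 sets of values were checked for 1 library far from the other 3 (gap over range above 0.829, Dixon's 95% limit), and 6 were found; chance gives about 1 group in 20. ND1 was at 8275 CPM in F1 saline replicate 1 and at 7055 to 7093 in the other 3. ND5 was at 3007 CPM in F2 METH replicate 3 and at 3672 to 3740.4 in the others. TrnL1 was at 37.9 CPM in F2 METH replicate 4 and at 31.8 to 32.5 in the others. CYTB took 13.2% of member counts in F1 saline replicate 2 and 12.3 to 12.4% in the others. Among F2 saline libraries, the complex III ratio of members to nuclear subunits was 12.7 in replicate 1 (10.6 to 10.9 in the others), and the complex V ratio was 3.16 in replicate 2 (3.34 to 3.37 in the others).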

How the results depend on the processing

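No member passed in F1 under 18 alternatives, in F2 under 20 or for the difference under 26 (smallest adjusted p 0.105, 0.785 and 0.641). The F1 median log2 fold change was 0.21 to 0.30 over all 18, and all 180 member values there were above 0. The F1 share difference was 1.03 to 1.36 points with 1 library left out and 2.28 points as a percent of summed TPM. The members held 15.1% of summed TPM in F1 saline libraries, against 6.69% of counts. As METH mean over saline mean, the F1 share was 1.15 on TPM and 1.17 on counts. The F2 share difference was -0.029 to 0.458 points and the F2 median -0.0072 to 0.091 with 1 library left out. In F2, 18 of 200 member values changed sign, and the cause was not tested. ND6 was -0.0011 without a filter on low counts, -0.0085 with all 15 libraries in 1 fit and -0.094 without F2 saline replicates 2 and 3, and -0.052 to 0.080 with 1 library left out. COX1 was -0.0027 with all libraries in 1 fit, -0.044 without libraries with Slc17a7 above 100 CPM, and -0.040 to 0.064 with 1 left out. COX2 was -0.0067 without the Slc17a7-high libraries and -0.0043 to 0.093 with 1 left out. ND5 was -0.011 without F2 saline replicates 2 and 3. With 1 library left out, COX3 ran from -0.18 to 0.024, ATP6 from -0.019 to 0.089 and ND2 from -0.028 to 0.13. Replicate numbers did not pair the samples (same-number correlations -0.0072 to 0.354 in F1 and -0.0624 to 0.0353 in F2, best with the own number in 1 of 3 and 0 of 4 pairs). With a replicate block, 0 members passed in F1, F2 or the difference (smallest adjusted p 0.287, 0.991 and 0.673). The F1 median was 0.26 and the F2 median 0.047. Members at an unadjusted p under 0.05 numbered 7 (F1), 0 (F2) and 2 (difference), against 4, 0 and 0 without the block. The count over all genes also moved. It was 1846 of 18499 (F1), 746 of 18093 (F2) and 1300 of 19308 (difference), against 774, 863 and 943 without the block. On simulated F1 data 22.4% of 1.5-fold changes were called, over genes drawn at random, and no smaller fold was simulated.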
